A study of Mus musculus with 3 samples.

Results

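Single cells of cardiac bodies (CB) were compared, gene by gene, with single cells of cardiac precursor cell cultures (CPCC). All cells of either culture with at least 100000 counts were taken, which left 219 of 232 CB cells in 3 pools of 63, 72 and 84 cells and 169 of 175 CPCC cells in 2 pools of 78 and 91 cells. These were 388 of the 591 cells that pass the same minimum in the whole series, which also holds embryonic stem cells that were not used here. The comparison covered the 20995 genes listed in the tables of both cultures.

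Both cultures came from male F1 mouse embryonic stem cells with a C57BL/6J mother and a CAST/EiJ father, which the study kept as clones of single cells from 3 blastocysts. All cells therefore carry both parental genomes, and no other allele or gene edit is named. For both cultures the stem cells were first aggregated in hanging drops and then kept in medium with ascorbic acid. For CPCC, the young aggregates were dissociated, plated on gelatin with EGF and Fgf2 and passaged repeatedly, and cells of the fourth passage were captured. For CB, the aggregates were left floating in the ascorbic acid medium until some of them beat, and beating bodies were picked under the microscope and dissociated with TrypLE and trypsin. The methods give no time or enzyme for the harvest of the captured CPCC cells. CPCC were thus a parallel culture and not the source of the CB cells, and length of culture, growth factors, shape of the culture and dissociation cannot be told apart between them. The labels name CPCC as cardiac precursor cells and CB as mature cardiac cells, with 1 sample each and no ages or times.

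Hanging drop aggregates form derivatives of all germ layers, and heart muscle is usually a minority of their cells. In the embryo, fibroblasts and smooth muscle around the heart come largely from the epicardium, the mesothelial sheet that covers it. Fibroblasts secrete collagens, small proteoglycans and elastic fibres, while stem cells that have not yet left pluripotency keep a set of factors and germline-linked genes that other cells silence.

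Levels are given as CPM, the counts of a gene per 1000000 counts of the shared genes, summed over the cells of a sample or pool. A ratio is the log2 of (CPM + 1) in CB over (CPM + 1) in CPCC, which understates the change of low genes. A gene was called when this ratio was 2 or more in either direction, a 4-fold difference, and it had its pools apart when all pools of one culture were above all pools of the other. With 1 sample per group there is no replicate check and no p-value, and the pools show only how even a difference was. By the methods, libraries of one capture chip and experiment were pooled, and some pools were then merged, so a pool cannot be told apart from its chip and experiment, and no label links it to a clone. The intervals below are exact 95% intervals, Poisson for sums and Clopper-Pearson for shares of cells, and cover counting error only. Detection means at least 1 count in a cell.

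The pools were not alike. CB pool 2 stood apart from CB pools 1 and 3 in the summed levels of matrix and endothelial genes, CB pool 3 had the lowest sums of cell division genes, and CPCC pool 2 held 6986 CPM of the macrophage genes against 18.8 CPM in CPCC pool 1, so pool values stand beside the results. Median depth was 1498980 counts per cell in CB, where pool medians ran from 865903 to 1820930, and 1448040 in CPCC, where they were 1637710 and 1124360. A median of 6667 genes was detected per CB cell and 9251 per CPCC cell, and 6009 and 8473.5 with every cell thinned to 430000 counts, which left out 9 CB and 13 CPCC cells. The median mitochondrial share was 5.43% of the counts of a cell in CB and 3.53% in CPCC. No pair of cells held identical values.

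Genes of heart muscle sarcomeres lay in few cells of either sample. Of the 14 sarcomere genes of heart muscle in the list, 9 were called higher in CB and 0 in CPCC, but only 9 of 219 CB cells and 8 of 169 CPCC cells carried 1000 CPM or more of the list, and a single CB cell held 62.2% of its CB counts. Tnnt2, cardiac troponin T, had 40.7 CPM in CB and 85.4 CPM in CPCC, a ratio of -1.05. Its pools held 24.2, 79.1 and 12.6 CPM in CB and 1.12 and 164 CPM in CPCC, so the order of the cultures changed with the pool.

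More genes were called for CB than for CPCC. In CB, 1006 genes were called higher, 4.79% of the genes compared, and 609 of them had their pools apart, 2.9% of the genes compared. In CPCC, 421 genes were called higher, 2.01%, of which 270 had their pools apart, 1.29%. Most genes differed little, as 75.4% lay within 2-fold and the median ratio over all genes was 0.14. Scaling by the size factors of DESeq2, which puts that median at 0, gave 787 and 532 calls, so that 59.7% instead of 70.5% of the calls were higher in CB. Leaving out CPCC pool 2 raised the calls for CB to 2023, of which 929 were among the original calls, and leaving out CB pool 2 raised those for CPCC to 751, with 391 among the original calls.

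**Figure D1:**
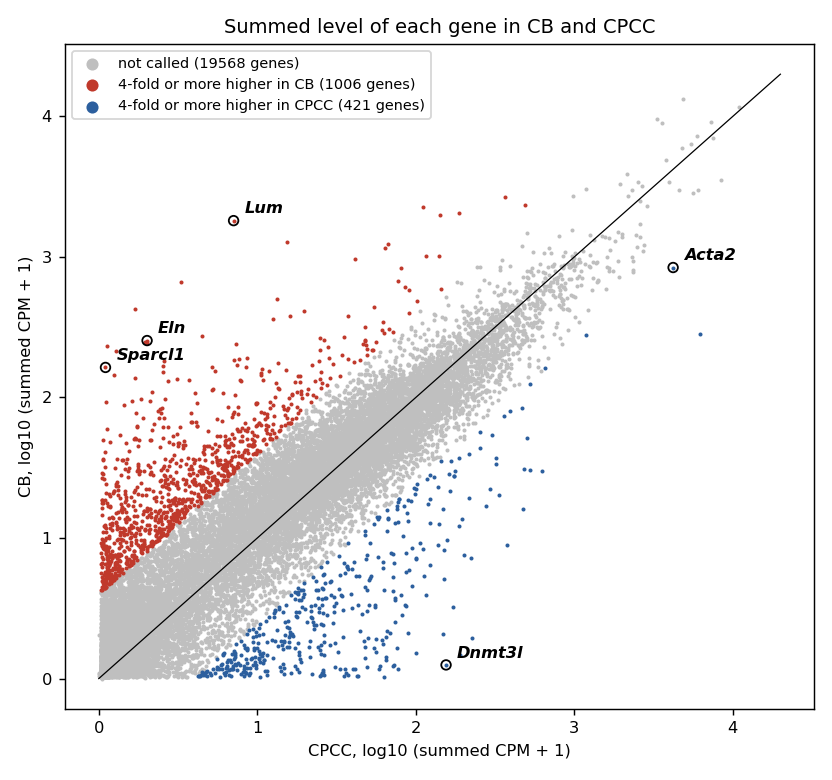
Each point is 1 of the 20995 genes, with the log10 of its summed CPM + 1 in CPCC on the x axis and in CB on the y axis; the line marks equal levels and rings mark the 5 marker genes. Red points are the 1006 genes called higher in CB, blue points the 421 called higher in CPCC, and both sets spread over nearly the whole range of levels.

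Most called genes had their counts in few cells. A gene called for CB was detected in a median of 17.6% of CB cells and 7.69% of CPCC cells. For 798 of these 1006 genes, 50% of the CB counts lay in 10 cells or fewer, and for 70 in 1 cell. Only 107 were detected in at least 50% of CB cells, and 83 of those had their pools apart. A gene called for CPCC was detected in a median of 32.5% of CPCC cells and 2.74% of CB cells, and 119 of the 421 were detected in at least 50% of CPCC cells, 109 of them with pools apart. For 250 of these 421 genes, 50% of the CPCC counts lay in 10 cells or fewer. With the same weight for every cell, 866 of the 1006 and 376 of the 421 genes were still called.

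Lum (chromosome 10, 97565128 to 97572703 in GRCm38), which encodes lumican, a proteoglycan of collagen fibrils, had the highest ratio of all genes named here, 8.0, with 1811 CPM in CB (1807 to 1816) and 6.09 CPM in CPCC (5.80 to 6.38). Its pools held 2589.8, 105 and 3045 CPM in CB against 0 and 11.8 CPM in CPCC. All CB pools were above both CPCC pools, although CB pool 2 was far below the others. It was detected in 65.3% of CB cells (58.6 to 71.6%) and 2.96% of CPCC cells (0.967 to 6.77%). At 5 counts or more these shares were 47.9% and 2.37%. The median CB cell had only 5.13 CPM, while the upper quartile was at 2309 CPM. A level of 100 CPM or more was reached in 98 CB cells and 2 CPCC cells.

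Sparcl1 (chromosome 5, 104079111 to 104113733), a secreted relative of the matrix protein SPARC, had 163 CPM in CB (161 to 164) and 0.102 CPM in CPCC (0.0678 to 0.147), a ratio of 7.21. It was the most even of the CB markers over pools, with 154, 80.0 and 243 CPM in CB and 0.166 and 0.0423 CPM in CPCC. One cell held 23.5% of its CB counts, and it was detected in 42.9% of CB cells (36.3 to 49.8%) and 2.96% of CPCC cells. With 5 counts or more these shares were 36.1% and 1.78%.

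Eln (chromosome 5, 134702593 to 134747323), the gene of elastin, had 253 CPM in CB (251 to 255) and 1.02 CPM in CPCC (0.901 to 1.14), a ratio of 6.98. The pools held 204, 0.244 and 507 CPM in CB and 0.574 and 1.43 CPM in CPCC. CB pool 2 thus lay below both CPCC pools, and none of its 72 cells reached 100 CPM, against 25 of 63 and 34 of 84 cells in the other CB pools.

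Acta2 (chromosome 19, 34241090 to 34255590), smooth muscle alpha actin, was higher in CPCC, with 4199.5 CPM (4192 to 4207) against 839.6 CPM in CB (836 to 843), a ratio of -2.32. The CPCC pools, with 2896 and 5416 CPM, lay above the CB pools, with 1822, 673 and 564 CPM. At a level of 100 CPM the share of cells did not follow the summed level. Acta2 reached 100 CPM in 33.8% of CB cells and 36.7% of CPCC cells, but the 90th percentile over cells was 1703 CPM in CB and 14823 CPM in CPCC. At 1 count or more it was detected in 57.5% and 84.6% of cells, and at 5 counts or more in 35.6% and 55.0%.

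Dnmt3l (chromosome 10, 78041947 to 78063622), the partner of the de novo DNA methyltransferases in stem and germ cells, had 154 CPM in CPCC (153 to 156) and 0.250 CPM in CB (0.200 to 0.310), a ratio of -6.96. All of its CB counts came from 1 cell of pool 1. The pools held 1.35, 0 and 0 CPM in CB and 285 and 32.5 CPM in CPCC. It was detected in 49.7% of CPCC cells (41.9 to 57.5%) and 0.457% of CB cells (0.0116 to 2.52%).

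**Figure D2:**
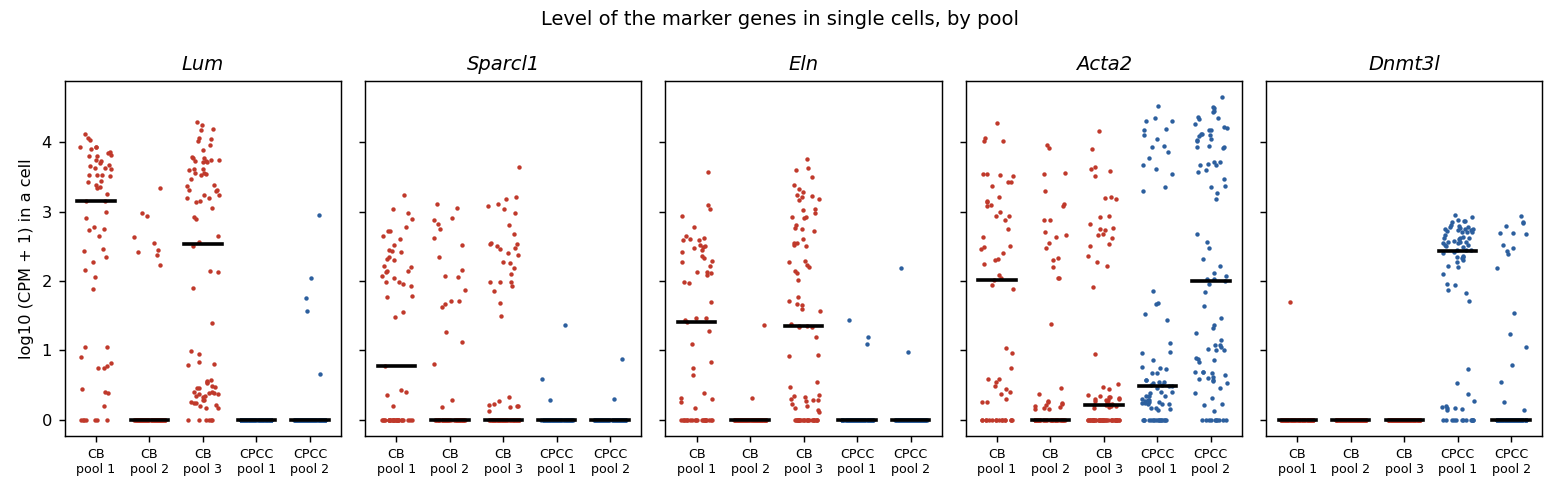
Each point is 1 cell, with the log10 of CPM + 1 of the marker gene on the y axis and the 5 pools on the x axis; black bars are medians over the cells of a pool. Cells fall into a high and a low set for each gene, Lum and Eln are high in CB pools 1 and 3, Dnmt3l is high in CPCC pool 1 and in fewer cells of CPCC pool 2, and Acta2 has high cells in every pool with the highest of them in CPCC.

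The start regions of 5 genes of the comparison are shown as examples, since they are described here as higher in one culture or the other. Each window runs from 250 bases before to 50 bases after the start annotated in RefSeq (GRCm38.p6), on the strand of the gene, with every CG pair in capitals. They were chosen to show a matrix gene, an imprinted gene and an immediate early gene beside the CPCC markers, and of the marker genes only Acta2 and Dnmt3l had a window. Dnmt3l has 3 windows, of which the first is shown.
Col3a1, higher in CB, chr1:45311288-45311587, + strand, 0 CG pairs: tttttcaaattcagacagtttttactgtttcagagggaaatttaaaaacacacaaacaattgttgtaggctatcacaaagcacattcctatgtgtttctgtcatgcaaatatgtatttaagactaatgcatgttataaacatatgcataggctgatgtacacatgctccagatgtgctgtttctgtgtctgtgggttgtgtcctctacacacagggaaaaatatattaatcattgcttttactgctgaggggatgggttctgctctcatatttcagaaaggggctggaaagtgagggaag
Plagl1, higher in CB, chr10:13090582-13090881, + strand, 26 CG pairs: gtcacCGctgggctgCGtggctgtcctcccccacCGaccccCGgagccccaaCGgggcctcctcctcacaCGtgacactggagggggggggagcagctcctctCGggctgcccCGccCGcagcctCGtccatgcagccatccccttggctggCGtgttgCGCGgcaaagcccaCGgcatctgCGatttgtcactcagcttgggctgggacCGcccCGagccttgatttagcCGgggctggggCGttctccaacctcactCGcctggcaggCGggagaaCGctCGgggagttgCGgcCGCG
Fos, higher in CB, chr12:85473640-85473939, + strand, 20 CG pairs: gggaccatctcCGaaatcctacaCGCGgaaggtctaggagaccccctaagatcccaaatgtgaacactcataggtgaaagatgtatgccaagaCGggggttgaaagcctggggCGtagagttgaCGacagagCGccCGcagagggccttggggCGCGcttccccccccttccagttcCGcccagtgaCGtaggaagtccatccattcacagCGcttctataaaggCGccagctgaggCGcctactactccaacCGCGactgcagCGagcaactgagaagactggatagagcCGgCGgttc
Acta2, higher in CPCC, chr19:34255324-34255623, - strand, 6 CG pairs: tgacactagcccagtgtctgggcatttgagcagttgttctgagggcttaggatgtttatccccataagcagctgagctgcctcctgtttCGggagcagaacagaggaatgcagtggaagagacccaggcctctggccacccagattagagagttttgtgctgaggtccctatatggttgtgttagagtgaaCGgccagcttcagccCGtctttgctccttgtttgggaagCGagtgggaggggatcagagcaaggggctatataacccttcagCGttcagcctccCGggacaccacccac
Dnmt3l, higher in CPCC, chr10:78042037-78042336, + strand, 6 CG pairs: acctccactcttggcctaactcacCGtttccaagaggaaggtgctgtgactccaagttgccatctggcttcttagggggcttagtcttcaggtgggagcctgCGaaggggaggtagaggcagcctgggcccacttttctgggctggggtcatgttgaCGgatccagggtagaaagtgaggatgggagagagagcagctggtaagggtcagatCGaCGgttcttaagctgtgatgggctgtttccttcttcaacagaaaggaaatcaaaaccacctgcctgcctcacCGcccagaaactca

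Genes called in the same direction had start regions of both kinds, CG-poor (Col3a1) and CG-rich (Plagl1 and Fos). No comparison of CpG content between the called sets is given, because only 71.4% of the genes called for CB and 71.3% of those called for CPCC had a window.

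Across 35 gene lists with 542 entries, 5 lists had a median above 0 in all 6 pairs of a CB pool with a CPCC pool, 4 had one below 0 in all 6, and 26 changed sign or were at 0 in some pair. The 5 lists were imprinted genes, the insulin-like growth factor (IGF) axis, bone morphogenetic proteins (BMP) with Id genes, Hox genes and immediate early genes. The 4 lists were pluripotency, germline-linked genes, glycolysis and housekeeping genes. The matrix and cell type lists were among the 26. Over all genes 4.79% were called for CB and 2.01% for CPCC, so a single call in a list says little about the list. The lowest pair of the immediate early genes, 0.08, lay below the median of all genes, 0.14, so its sign in that pair depends on the scaling.

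**Figure D3:**
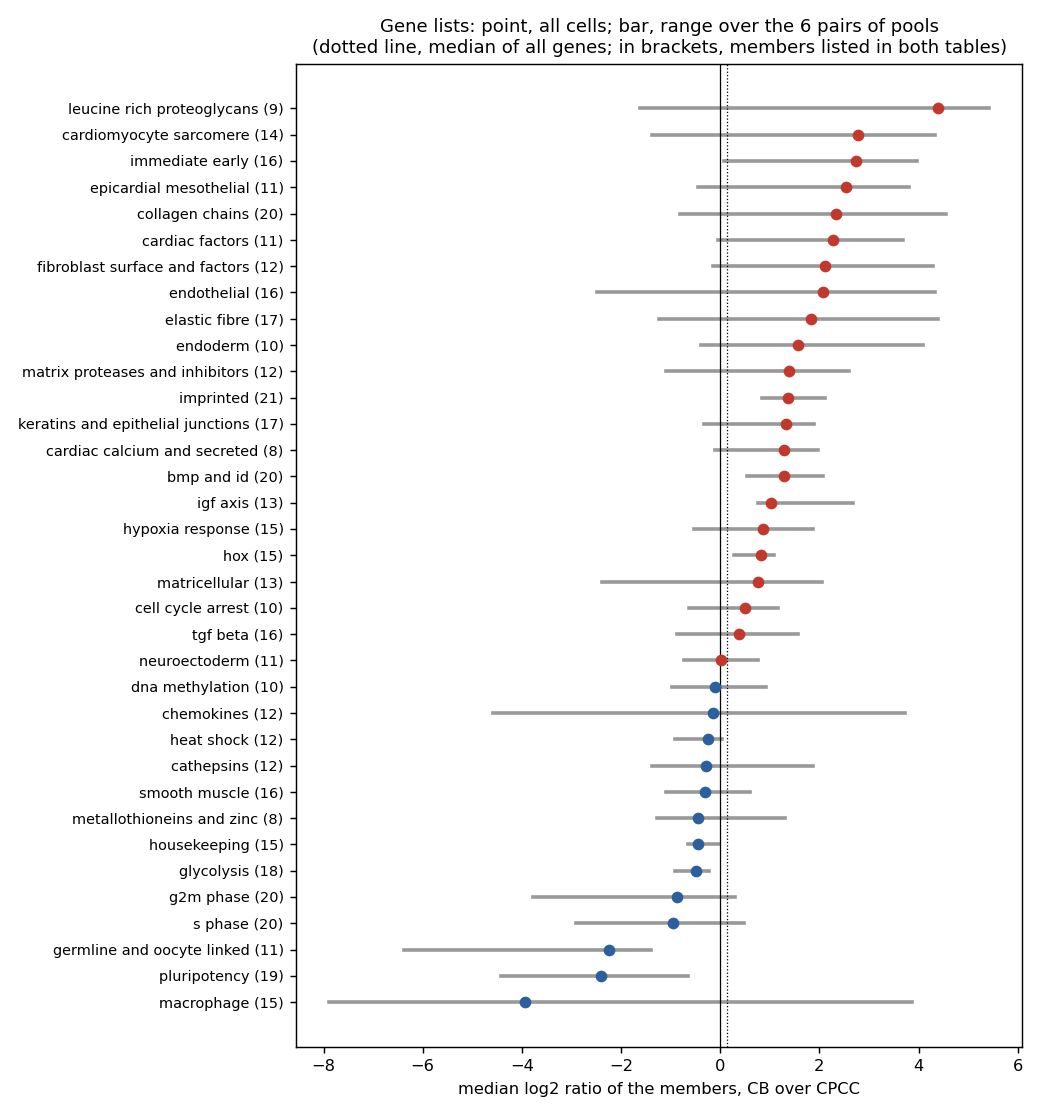
Each row is a gene list with its number of genes listed in both tables, the point is the median log2 ratio of CB over CPCC over its members in all cells, and the grey bar runs from the lowest to the highest median over the 6 pairs of pools; the dotted line is the median of all genes. Bars of imprinted, BMP, IGF, Hox and immediate early genes stay above 0, those of pluripotency, germline-linked, glycolysis and housekeeping genes stay below 0, and the macrophage and endothelial bars reach far to both sides.

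Imprinted genes, which many tissues read from 1 parental copy, had a list median above 0 in all pairs of pools, while 11 of the members were not called. The median ratio of the 21 members was 1.36, from 0.84 to 2.11 over the pairs of pools, with 8 called for CB and 2 for CPCC. H19, a growth-restraining RNA of the fetus, had 3631, 2691 and 2235 CPM in the CB pools and 74.3 and 640.1 CPM in the CPCC pools, and 100 CPM or more in 189 of 219 CB cells against 49 of 169 CPCC cells. For Plagl1, a zinc finger factor of the same growth network, the pools held 2815, 697 and 1029.7 CPM in CB and 22.1 and 106 CPM in CPCC, a ratio of 4.21 between the sums. Both genes were higher in each CB pool than in either CPCC pool. Dlk1, a membrane ligand related to those of Notch, had a ratio of 4.98 but was uneven, with 773, 12.9 and 34.97 CPM in the CB pools and 4.56 and 3.83 CPM in the CPCC pools. Mest had 2339 CPM in CB and 487 CPM in CPCC, at nearly the same share of detecting cells, 92.2% and 89.9%. The 2 members called for CPCC were Snrpn, a spliceosome gene, with 124 CPM in CB and 528 CPM in CPCC, and Phlda2, with 3.41 and 17.1 CPM. Allelic counts were not analysed here.

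Igf2, the fetal growth factor beside H19, had a ratio of 5.58, but one cell held 58.1% of its CB counts, and CB pool 2, with 3.11 CPM, was just below CPCC pool 1, with 3.52 CPM. Binding proteins of the growth factor were more even. Igfbp5 had 186, 269 and 521 CPM in the CB pools and 10.2 and 12.9 CPM in the CPCC pools, and was detected in 75.8% and 7.69% of cells. Igfbp4 had 1015 CPM in CB and 116 CPM in CPCC. Over the 13 members of the IGF axis the median was 1.03, with 4 called for CB and 0 for CPCC, and 2.67 without CPCC pool 2.

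Of 20 BMP pathway and Id genes, 7 were called for CB and 0 for CPCC, with a median of 1.28 (0.54 to 2.07). Among the ligands, Bmp7 had 45.7 CPM in CB and 1.92 CPM in CPCC, and Bmp5 14.3 and 0.313 CPM, both with pools apart. Id1, an inhibitor of bHLH factors and a target of BMP signals, was at nearly one level in the CB pools, 297, 281 and 336 CPM, above 61.7 and 71.6 CPM in the CPCC pools. Id2 had 481, 633 and 599 CPM in CB and 66.0 and 216 CPM in CPCC. The secreted inhibitor Grem1 was called too, with a ratio of 2.75, but its pools overlapped. Among 16 genes of transforming growth factor beta signalling, 1 was called for CB, the co-receptor Tgfbr3 with 42.5 CPM against 2.38 CPM in CPCC, and 3 for CPCC, Nodal and its inhibitors Lefty1 and Lefty2, with ratios from -4.38 to -2.47. The list median was 0.38, and -0.29 without CB pool 3. Of 15 Hox genes listed in both tables, only 1 was called, Hoxa2, with 5.43 CPM in CB and 0.164 CPM in CPCC, and the list median of 0.82 became 0.40 without CB pool 3. The Hox list was low, with a sum of 38.2 CPM in CB and 10.1 CPM in CPCC. A median of 0 members was detected per cell in either culture.

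Immediate early genes, which cells transcribe within minutes of a stimulus and also during dissociation, had a median of 2.74, with 10 of 16 called for CB and 0 for CPCC. Fos had 2542, 357 and 3424 CPM in the CB pools and 62.4 and 303 CPM in the CPCC pools, and Egr1 1669, 132 and 1862 CPM and 37.6 and 87.4 CPM. The order of the cultures was the same in all pools for both genes, while CB pool 2 lay close to CPCC pool 2. The summed list stood at 8455, 1852 and 11818 CPM in the CB pools and 873 and 1928 CPM in the CPCC pools, so that CB pool 2 was below CPCC pool 2 on this sum. Fos reached 100 CPM in 175 of 219 CB cells and 55 of 169 CPCC cells. Without CB pool 3 the list median was 1.64. The dissociation of the captured CPCC cells is not described, and dissociation and culture cannot be told apart here. Of 12 chaperones of the heat shock response, 2 were called for CB, Hspa1a with 27.2 CPM against 1.21 CPM and Hspa1b with 25.1 CPM against 2.39 CPM, and the list median was -0.25.

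Matrix genes were higher in CB through CB pools 1 and 3. Of 20 collagen chains 12 were called for CB and 0 for CPCC, with a median of 2.34 that ran from -0.80 to 4.55 over the pairs of pools and was 1.54 without CB pool 3 and 3.87 without CPCC pool 2. Col3a1, a chain of fibrillar collagen, had 4070.0, 151 and 3384 CPM in the CB pools and 14.7 and 198 CPM in the CPCC pools. Col1a2 had 2503, 57.4 and 3546 CPM in CB and 37.2 and 238 CPM in CPCC. For both, CB pool 2 lay below CPCC pool 2. The beaded-filament chain Col6a3 had the highest ratio of the list, 6.05, and kept its pools apart at 219, 3.12 and 295 CPM and 0.438 and 2.55 CPM. Basement membrane chains differed less, with ratios of 1.36 for Col4a1 and 1.72 for Col4a2, and were higher in every CB pool than in either CPCC pool. The list summed to 1000 CPM or more in 130 of 219 CB cells and 44 of 169 CPCC cells.

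Small leucine-rich proteoglycans, which bind collagen fibrils, had the highest list median over all cells, 4.39, with 7 of 9 called for CB, 1 of them with pools apart, and 0 for CPCC. The median was 1.64 without CB pool 3, and -1.62 in the lowest pair of pools. After Lum came Dcn, decorin, with 2832, 3.01 and 1759.7 CPM in the CB pools and 0.347 and 27.5 CPM in the CPCC pools. Ogn and Aspn were highest in CB pool 3, at 885 and 636 CPM, and below 3 CPM in CB pool 2. Biglycan (Bgn) was the least different member, with 784 CPM in CB and 530.1 CPM in CPCC, where pool 2 held 994 CPM.

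Of 17 genes of elastic fibres, 7 were called for CB and 0 for CPCC. Mfap4, a microfibril protein, had 370.1, 43.5 and 985 CPM in the CB pools and 5.40 and 18.7 CPM in the CPCC pools. Fbn2, fetal fibrillin, was more even than Eln, with 209.9, 132 and 200.4 CPM in CB and 1.06 and 23.1 CPM in CPCC. Lox, the enzyme that cross-links elastin and collagen, had a ratio of 1.97, just under the limit, and was at 0 CPM in CB pool 2. Of 13 matricellular genes, 5 were called for CB, among them Postn, periostin, with 482 CPM against 101 CPM in CPCC. The matricellular member called for CPCC was Spp1, osteopontin, a secreted phosphoprotein of macrophages and bone. The medians were 1.83 for elastic fibres and 0.77 for matricellular genes. Without CB pool 3 they were 0.87 and -0.28, so the matricellular median turned, and without CPCC pool 2 they were 4.06 and 1.39. The sum of the matricellular list, which holds Spp1, was lower in CB, at 5597 CPM against 9796 CPM in CPCC. Of 12 matrix proteases and inhibitors, 3 were called for CB and 0 for CPCC, with a median of 1.39 that was 0.53 without CB pool 3. The highest ratio was 2.74, of Adamts2, which trims procollagen, and the lowest -1.98, of the inhibitor Timp1, with 79.1, 15.7 and 68.3 CPM in the CB pools and 109.6 and 284 CPM in the CPCC pools.

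Genes that mark fibroblasts by receptor or factor had a like pattern. Of 12, 6 were called for CB and 0 for CPCC, with a median of 2.11 that was 1.12 without CB pool 3 and 3.52 without CPCC pool 2. Tcf21, a factor of epicardium-derived fibroblasts, had 81.8, 10.9 and 80.0 CPM in the CB pools and 0.611 and 0.134 CPM in the CPCC pools. Pdgfra, the receptor of platelet-derived growth factor, had 189, 30.2 and 279 CPM and 11.8 and 3.43 CPM. Both had their pools apart. Vim, which most mesenchymal cells use, had 569 CPM in CB and 706 CPM in CPCC.

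The list of epicardium and mesothelium was high in CB pools 1 and 3. Of 11, 7 were called for CB and 0 for CPCC, with a median of 2.53. The uroplakin genes, known from urothelium and mesothelium, led the list. Upk1b had 711, 0.0686 and 1257 CPM in the CB pools and 1.64 and 2.92 CPM in the CPCC pools, and Upk3bl 229, 3.20 and 894 CPM and 0.476 and 0.909 CPM. Upk1b reached 100 CPM in 49 CB cells, 0 of them in pool 2, and in 0 of 169 CPCC cells. Of these 49 cells, 45 also reached that level of the epithelial gene Wfdc2 and 2 that of Tcf21. Msln, mesothelin, had 112 CPM in CB and 4.21 CPM in CPCC, in 21.9% and 15.98% of cells. Of 17 keratins and epithelial genes, 6 were called for CB and 0 for CPCC, with a median of 1.33. Krt14, a keratin of basal epithelial cells, had the highest ratio, 6.38, with 80.2, 1.98 and 179 CPM in the CB pools and 0.234 and 0 CPM in the CPCC pools. Wfdc2, a secreted protease inhibitor of epithelia, was detected in nearly the same share of cells, 63.0% in CB and 62.1% in CPCC, at 958 CPM against 40.4 CPM. Krt18, a keratin of simple epithelia, stood the other way, with 257 CPM in CB and 489 CPM in CPCC.

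Endothelial genes were a difference of 1 pool. Of 16, 9 were called for CB and 0 for CPCC, but none had its pools apart. Kdr, the main receptor of vascular endothelial growth factor, had 16.5, 279.8 and 7.49 CPM in the CB pools and 0.408 and 23.6 CPM in the CPCC pools, and 24 of the 30 CB cells with 100 CPM or more were in pool 2. The summed list stood at 161, 1689.9 and 110.2 CPM in CB and 158 and 321 CPM in CPCC. Without CB pool 2 its median turned from 2.07 to -1.35. Of 10 endoderm genes, 5 were called for CB and 0 for CPCC, with a median of 1.57, which was -0.049 without CB pool 2. The sum of these 10 genes stood the other way, at 1791 CPM in CB and 2419 CPM in CPCC, with 1036, 3012 and 995 CPM in the CB pools and 718 and 4005 CPM in the CPCC pools. Of the 15 entries of the list, 5 were listed only for CB and are not in the sum. In each culture 10 cells held 71.8% of its counts. Secreted products of endoderm and liver lay in even fewer cells. Afp, alpha-fetoprotein, had 8.04, 592 and 0 CPM in the CB pools, and Apoa1 2.82, 542 and 0.134 CPM, against less than 1 CPM in either CPCC pool. Afp reached 100 CPM in 8 CB cells, and 7 of these were all the cells in which Apoa1 did.

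Within heart muscle genes the highest ratio was that of Myl7, the atrial light chain of myosin, with 13.9, 160.1 and 0.640 CPM in the CB pools and 5.14 and 0.712 CPM in the CPCC pools. Actc1, cardiac alpha actin, had 133, 493 and 1.29 CPM in CB and 43.7 and 5.30 CPM in CPCC, and a single cell held 60.9% of its CB counts. The median ratio of the sarcomere list was 2.79 in all cells, 1.41 without the CB cell that held most of its counts, and 0.31 without CB pool 2. Transcription factors of the heart lineage were spread over more cells, as the CB cell with most of their counts held 3.38%. Of 11, 6 were called for CB, 2 of them with pools apart, with a median of 2.27. Without CB pool 2 that median was 0.075, and with a pseudocount of 10 CPM it was 0.63. Isl1, a factor of the second heart field, had 21.0, 65.4 and 19.5 CPM in CB and 0 and 3.86 CPM in CPCC, and Hand2, a factor of both heart fields, 24.98, 15.98 and 14.3 CPM in CB and 0.00755 and 3.75 CPM in CPCC, both with pools apart. Nkx2-5 had 5.84 CPM in CB, with 14.4 CPM in pool 2, and 0.361 CPM in CPCC. Of 8 genes of calcium handling and natriuretic peptides, with a median of 1.29 that was 0.48 with a pseudocount of 10 CPM and 2.11 without CPCC pool 2, 2 were called, Pln and Ryr2, and the CB cell with most counts held 82.6% and 61.5% of them.

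**Figure D4:**
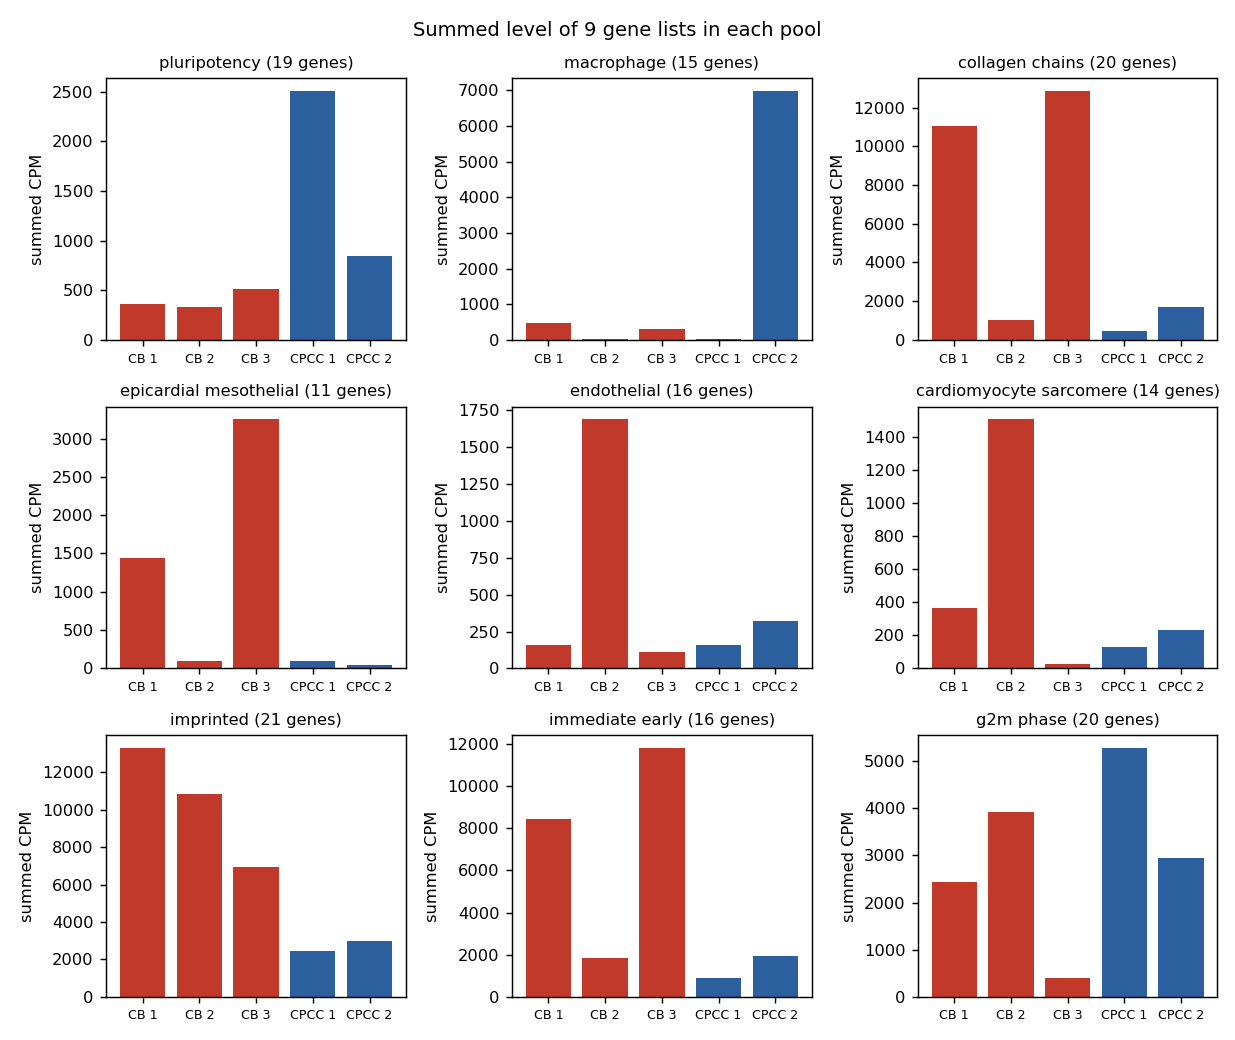
Each panel is a gene list with its number of genes, and each bar is the CPM of its members summed over the cells of 1 pool, red for the 3 CB pools and blue for the 2 CPCC pools, on a linear axis that starts at 0 and differs between panels. Collagen and epicardial lists are high in CB pools 1 and 3, endothelial and sarcomere lists in CB pool 2, the macrophage list in CPCC pool 2, and the imprinted list in all 3 CB pools.

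Pluripotency genes were higher in CPCC. Of 19 listed in both tables, 10 were called for CPCC, all with pools apart, and 1 for CB, with a median of -2.41 (-4.42 to -0.65). Nanog, a core factor of naive stem cells, had the lowest ratio of the named genes, -7.02, with 298 and 87.6 CPM in the CPCC pools and 2.05, 0.0534 and 0.148 CPM in the CB pools. Utf1, a chromatin protein of stem cells, had 357 and 103 CPM in CPCC and 0, 1.94 and 0.415 CPM in CB, and was detected in 72.8% and 5.02% of cells. With 5 counts or more these shares were 60.4% and 2.28%. Zfp42, a marker of the naive state, was far higher in CPCC pool 1, at 326 CPM, than in pool 2, at 23.7 CPM. Tdgf1, the co-receptor of Nodal, was more alike in the pools, at 463 and 297 CPM. The member called for CB was Klf4, which differentiated epithelia also use, with 130.4 CPM in CB and 22.2 CPM in CPCC. Pou5f1, the central factor of the state, was listed only in the CPCC table, so it has no ratio. The list reached 1000 CPM in 93 of 169 CPCC cells and 18 of 219 CB cells.

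Genes of the germ line that stem cells also transcribe followed, with 7 of 11 called for CPCC, 0 for CB and a median of -2.24 that was -5.12 without CB pool 2. Tex19.1, which restrains mobile elements, had 285 and 19.99 CPM in the CPCC pools and 0, 2.74 and 0 CPM in the CB pools. Ooep, an oocyte protein, had 71.0 CPM in the CPCC cells and 0.236 CPM in the CB cells, and Tdrd12, of the piRNA pathway, 76.0 and 0.170 CPM. Rhox5 and Trap1a, both X-linked, were called as well, but CB pool 2 held 82.8 and 83.6 CPM of them, more than CPCC pool 2. Among genes detected in at least 25% of CPCC cells, the 15 lowest ratios included 5 zinc finger genes with Zfp names besides Zfp42. They were Zfp988, Zfp980, Zfp534, Zfp936 and Zfp987, from -6.04 to -5.52. Of these, Zfp988, Zfp980, Zfp534 and Zfp987 lie on chromosome 4, and from 54.5 to 63.2% of their CB values above 0 were not whole. Such shares were not confined to them, as H19 had 54.0% and Mest 58.3%. Whether counts of the zinc finger genes were shared out among near copies was not tested, so their separate levels are uncertain.

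Among DNA methylation genes, Dnmt3b, a de novo methyltransferase, accompanied Dnmt3l, with 236 and 49.9 CPM in CPCC and 11.1, 20.7 and 3.33 CPM in CB. Tet1, a dioxygenase that oxidises methylcytosine, had 136 CPM in the CPCC cells and 36.5 CPM in the CB cells, while Tet3 stood the other way with 18.2 and 70.2 CPM. Neither reached 4-fold, and the 10 genes of the list had a median of -0.11, which was 0.25 without CPCC pool 1. The neural list, 11 genes, had 2 called each way and a median of 0.01, which was -0.24 with the size factors of DESeq2, while its sum was 119.8 CPM in CB and 389 CPM in CPCC. Of the 2 called for CPCC, Stmn2, a tubulin-binding protein, was detected in 74.0% of CPCC cells and 10.05% of CB cells, and Tubb3 in 62.1% and 10.5%.

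Spp1 was the gene with the largest gain in CPM for CPCC, with 6217 CPM against 280.1 CPM in CB, a ratio of -4.47. Its CPCC pools held 637 and 11423 CPM and its CB pools 177, 58.0 and 529.6 CPM. Of the Spp1 counts, 10 cells held 82.2% in CPCC and 1 cell held 46.7% in CB. Macrophage genes had the lowest list median, -3.95, with 14 of 15 called for CPCC and 0 for CB, but none had its pools apart. The complement gene C1qb had 0 and 1208 CPM in the CPCC pools and 66.9, 0 and 39.3 CPM in the CB pools, and reached 100 CPM in 19 CPCC cells, all in pool 2, and 5 CB cells. Without CPCC pool 2 the list median turned to 3.63. Of the CB counts of the list 91.9% lay in 10 cells, and CPCC pool 1 held 18.8 CPM of it. Cells with Spp1 lay in both CPCC pools, as 53 of 78 cells of pool 1 and 43 of 91 cells of pool 2 reached 100 CPM. Of the 62 CPCC cells with 100 CPM or more of Dnmt3l, 54 had that level of Spp1, as did 18 of the 19 C1qb cells. Lysosomal cathepsins followed the macrophage genes in pool, with 1701 and 10964 CPM summed over 12 genes in the CPCC pools and 4391, 2426 and 4904 CPM in the CB pools. Ctss and Ctsd were called for CPCC and 0 for CB, with a list median of -0.28 that was 1.53 without CPCC pool 2. Of 12 chemokines 1 was called, Ccl9 for CPCC, with 16.9 and 67.7 CPM in the CPCC pools and 2.21, 1.55 and 0.408 CPM in the CB pools, and the median was -0.15, or 2.71 without CPCC pool 2.

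Contractile genes of smooth muscle were higher in CPCC as a sum, with 6448 and 10413 CPM in the CPCC pools and 5788, 2328 and 3024 CPM in the CB pools, while single members went both ways. Acta2 alone made up 4199.5 of the 8499 CPM summed over CPCC and 839.6 of the 3263 CPM summed over CB. Of 16, 1 was called for CPCC, Acta2 itself, and 2 for CB, with a median of -0.31 that was 0.09 without CPCC pool 2. Tagln, which binds actin in smooth muscle, stood at 884 and 1534 CPM in CPCC and 963, 241 and 349 CPM in CB, so that CB pool 1 lay above CPCC pool 1. Tpm1, a tropomyosin, had 1549.6 and 1648 CPM in the CPCC pools and 1023, 738 and 883 CPM in the CB pools. The 2 called for CB were Mylk, the kinase of myosin light chain, with 45.0 CPM against 2.39 CPM, and Des, desmin, with 29.0 CPM against 5.42 CPM. Actg2 was unevenly held, as 1 cell had 69.3% of its CB counts.

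Genes of cell division had medians below 0, but not in every pair of pools. The median was -0.95 over 20 genes of DNA replication and -0.86 over 20 of the G2 phase and mitosis, and in each list 1 gene was called for CPCC and 0 for CB. The medians ran from -2.90 to 0.49 and from -3.78 to 0.29 over the pairs of pools. CB pool 2, at 3436 and 3929 CPM summed over the lists, was above CPCC pool 2, at 2716 and 2945 CPM. The genes called were the cyclins Ccne1, with 523 and 127 CPM in the CPCC pools and 29.7, 69.1 and 8.77 CPM in the CB pools, and Ccnb1, with 927 and 394 and 195, 291 and 28.5 CPM. CB pool 3 was lowest and CB pool 2 highest of the CB pools for both. Mki67, a marker of dividing cells, had a ratio of 0.62 and reached 100 CPM in 43 of 72 cells of CB pool 2, 19 of 63 cells of pool 1 and 3 of 84 cells of pool 3, against 27 of 78 and 36 of 91 cells in CPCC. Of 10 genes of cell cycle arrest, with a median of 0.50 that was -0.16 without CB pool 3, 1 was called, the imprinted kinase inhibitor Cdkn1c, which had 34.7 CPM in CB and 3.69 CPM in CPCC.

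Glycolysis gave 0 calls over 18 genes and yet kept one direction. Its median was -0.48, from -0.92 to -0.22 over the pairs of pools, and the housekeeping list, with 0 of 15 called, had a similar median of -0.44 (-0.65 to -0.02). Pkm, pyruvate kinase, had 1977 and 1541 CPM in CPCC and 448, 1128 and 622 CPM in CB. Slc2a3, a glucose transporter, had the lowest ratio of the list, -1.81. Vegfa, which low oxygen induces, stood the other way, with 105 CPM in CB and 17.8 CPM in CPCC, as 1 of 2 called for CB among 15 hypoxia genes, with a list median of 0.87. Of 8 metallothionein and zinc transport genes 0 were called, with a median of -0.44 that was 0.70 without CPCC pool 1. Mt1 was high in 1 pool of each culture, with 165, 947 and 145 CPM in the CB pools and 1548 and 201 CPM in the CPCC pools. The largest differences in CPM, which weigh long and abundant RNA, were in CB those of CT010467.1, annotated as ribosomal RNA, at 13389 against 4845 CPM and of the nuclear RNA Malat1 at 9535 against 3334 CPM, followed by mt-Rnr2, H19 and Col3a1. In CPCC the cytoskeletal actin Actb, at 6054 against 2997 CPM, followed Spp1, Ftl1-ps1 and Acta2. Ftl1-ps1 is annotated as protein coding but carries the name of a ferritin pseudogene, and since counts could be split between it and Ftl1 its level is uncertain. With the mitochondrial and the 20 most abundant genes left out of the totals, 1088 and 432 genes were called, of which 1006 and 419 were among the original calls.

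Some pairs of genes lay mostly in different cells and others overlapped. In CPCC, 95 cells had 100 CPM or more of Utf1 and 62 had that level of Acta2, with 9 cells in common, which is 9.47% of the former and 14.5% of the latter. Another 21 cells had neither. In pool 1 there were 56 cells with Utf1 alone and 14 with Acta2 alone, and in pool 2 there were 30 and 39. Every CPCC cell at that level of Dnmt3l was also at that level of Utf1, and 3 of the 62 were at it for Acta2. In CB, 58 cells had 100 CPM or more of Eln but not Kdr, 29 of Kdr but not Eln, 1 of both and 131 of neither. Much of this was a split by pool, since pool 2 held 24 cells with Kdr and 0 with Eln, while pools 1 and 3 held 25 and 34 with Eln and 4 and 2 with Kdr. Of the 98 CB cells at that level of Lum, 92 had it for Col3a1, 74 for Dcn, 53 for Eln, 48 for Acta2 and 13 for Upk1b. No CB cell had it for both Upk1b and Kdr, but pool 2, with 24 of the 30 Kdr cells, held 0 Upk1b cells, so few cells could have had both. Kdr overlapped with another matrix gene, as 14 of the 30 Kdr cells had 100 CPM or more of Sparcl1. H19, which 86.3% of all CB cells had at that level, was found in 95 of the 98 Lum cells, 29 of the 30 Kdr cells and 34 of the 49 Upk1b cells. Counted by cells, 48 of the 74 CB cells with Acta2 had Lum, and 53 of the 62 CPCC cells with Acta2 lacked that level of Utf1. By level this did not hold for CB, where 6 cells held 50% of the Acta2 counts and the cell with the highest level, 18749 CPM of Acta2, had 6.91 CPM of Lum. The methods say that the number of cells in each chamber was recorded under the microscope, but the tables do not carry that record, and the part of doublets in cells with both genes of a pair was not tested.

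**Figure D5:**
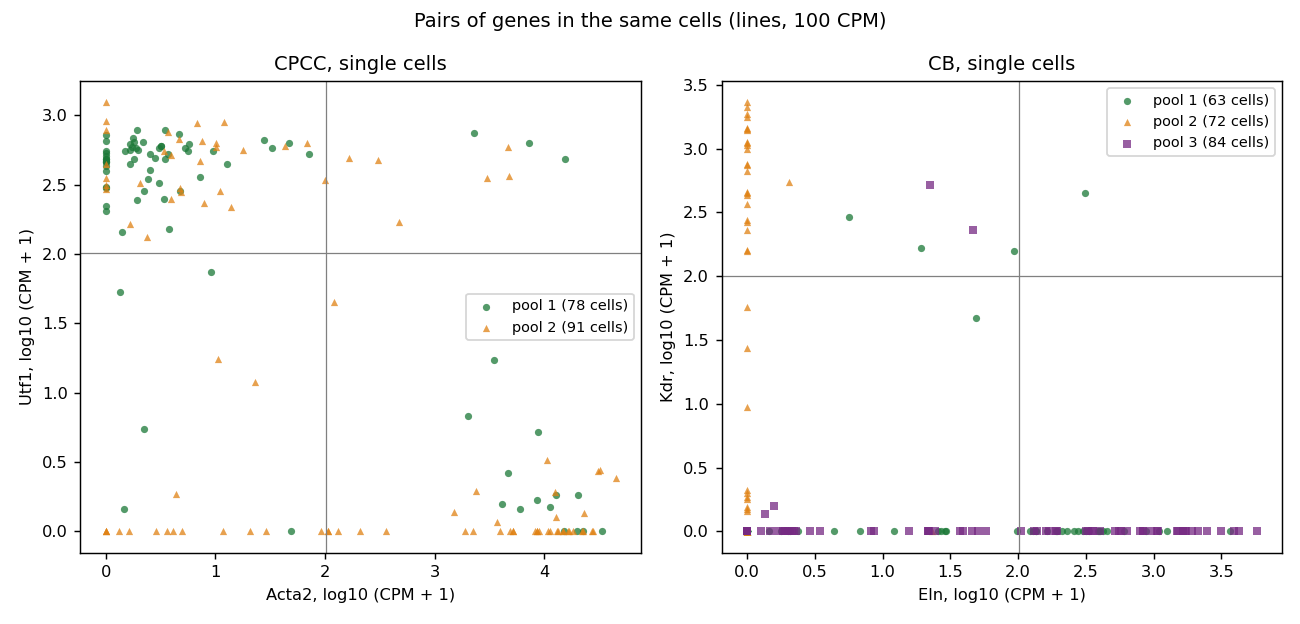
Each point is 1 cell, with log10 of CPM + 1 on both axes and the pool as shape and colour; grey lines mark 100 CPM. In CPCC (left) 9 of 169 cells are above both lines and 21 above neither, and in CB (right) 1 of 219 cells is above both and 131 above neither, with the Eln cells in pools 1 and 3 and most Kdr cells in pool 2.

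The tables differed in form. The CB table holds values that are not whole, 27.6% of those above 0, while the CPCC table holds whole numbers only. Among the 6934 genes with over 10% of such values in CB, 3.58% were called for CB and 1.73% for CPCC, against 5.39% and 2.14% of the other 14061 genes. By level, 7.98% of genes with a mean of 1 to 10 CPM were called for CB, 6.00% of those from 10 to 100 CPM and 2.87% of those above, and 0 of the 4989 genes below 1 CPM, where the added pseudocount leaves little room for a call. Of protein-coding genes, 6.29% were called for CB and 2.50% for CPCC, and of 2542 processed pseudogenes 0 and 8 genes were.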

How the data were processed

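Cells were captured on Fluidigm C1 chips, amplified with a SMART-Seq kit and sequenced as 1 pool per lane. The authors aligned reads with STAR 2.7 to GRCm38 (mm10) and counted genes in Partek Flow. The deposited values are estimated counts per gene and cell, not normalized and with no molecular identifiers, so a count is not a molecule. Of the CB values above 0, 27.6% were not whole (tolerance 0.001), of the CPCC values none, and why the tables differ is not given in the sources used here.

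Cells with at least 100000 counts were kept, and pools were taken from the column names. Of the CPCC table, 208 rows without a symbol and 23 rows whose symbol had been turned into a date, with 0.139% of its counts, were dropped, as were 2 columns that matched no sample. The shared 20995 genes held 99.2% of CB and 99.5% of CPCC counts, and 3234 and 2376 genes were listed in one table only. CPM was computed from sums over cells, and ratios with a pseudocount of 1 CPM (Python 3.11.15, numpy 2.4.6, pandas 2.3.3, scipy 1.17.1). With 1 sample per group no test was made. The calculation was tested on simulated counts with known changes. The alternatives were TMM factors (edgeR 4.0.16) and size factors (DESeq2 1.42.0) in R 4.3.3, other totals, pseudocounts, cell and gene filters, equal weight per cell, and each pool left out in turn. Gene positions are from GENCODE vM21 (GRCm38).

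Genes were named by a rule: the markers, the 15 highest and lowest ratios among genes found in 25% or more of cells on their higher side, the 10 largest CPM differences each way, and in each of the 35 lists the members with the highest and lowest ratio or the highest CPM and known heart muscle markers. Other named members were chosen after their values were seen. The members and lists were chosen with earlier results of these data known.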

Additional observations from a re-analysis of the deposited data

How the results depend on the processing

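Counts of genes rested on the pseudocount, the gene filter and single pools, and the sign of the list median turned in 12 of 35 lists when some pool was left out. With a pseudocount of 0.1 CPM, 2146 genes were called higher in CB and 810 in CPCC, of which 1113 and 488 had their pools apart. With 10 CPM these counts were 193, 123, 122 and 74, and with genes of a mean of 10 CPM or more they were 552, 248, 356 and 149, since fewer genes were then compared or could pass. Leaving out each pool in turn gave 734 to 2023 calls for CB and 380 to 751 for CPCC, the highest without CPCC pool 2 and without CB pool 2. With pools apart they were 565 to 1593 and 328 to 602, where fewer pools also make the condition easier to meet. Calls for CB with pools apart numbered 1139 without CB pool 2, and those for CPCC 474 without CPCC pool 2.

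The pluripotency median was -4.24 with genes of a mean of 10 CPM or more and ran from -4.0 (without CB pool 2) to -1.21 with a pool left out. The sarcomere median ran from 0.31 (without CB pool 2) to 3.55, the imprinted median from 1.13 to 1.78 (without CPCC pool 2), and that of smooth muscle from -0.61 to 0.09. The last of these turned without CPCC pool 2. The macrophage median ran from -4.89 to 3.63, and so turned without CPCC pool 2, as the endothelial and endoderm medians did without CB pool 2, whose ranges were -1.35 to 3.47 and -0.049 to 2.82. The cause was not tested. Without the CB cell with most sarcomere counts, an alternative added after seeing the data, the sarcomere median was 1.41.

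TMM and DESeq2 factors moved the median of all genes from 0.14 to 0.01 and to about 0, giving 801 and 521 calls with TMM and 787 and 532 with DESeq2, and 60.6% and 59.7% of calls were then higher in CB. The neural median, 0.01, became -0.21 and -0.24. Genes detected only in a few cells at this depth cannot be compared between cultures beyond the cells captured. No paired analysis was possible because each culture is 1 sample and no label pairs the pools.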

Other observations

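Genes listed in only one of the tables have no ratio, although some are abundant. Of the 3234 genes listed only for CB, Cyp2f2, a cytochrome of lung and airway, had 862 CPM, the keratins Krt4 and Krt15 had 438 and 364 CPM, and Ttr, transthyretin, had 90.9 CPM. Ctsk, a collagen-degrading cathepsin, had 95.3 CPM. Of the 2376 genes listed only for CPCC, Dppa5a, an RNA-binding protein of stem cells, had 2185 CPM, Gdf3 had 127 CPM, Dppa4 had 97.2 CPM and Pou5f1 had 77.3 CPM. P2ry12, a receptor of microglia and platelets, had 48.3 CPM in CPCC. A gene that is not listed in the table used here was not counted as 0. Genes whose symbols the CPCC table holds as dates are listed only for CB for that reason.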
